A study of Mus musculus with 15 samples.

Results

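A brain preparation sorted for mural cells was compared with whole aorta, both from Notch3 heterozygous mice. The comparison used 7 of the 15 arrays of the study, chosen by their titles. They were brain arrays E, G, I and H and aorta arrays 5556, 5561 and 6166. All were Notch3 +/- male C57BL6J mice of 10 to 12 weeks, so that every mouse carried 1 disrupted Notch3 copy, with no wild type beside them; the labels do not say how the gene was disrupted. The brain samples were cells isolated as smooth muscle cells and pericytes by flow sorting, straight into lysis buffer, from 4 mice according to the design text, and the labels do not give the gate of the sort. The aorta samples were RNA of explants, extracted with Trizol and columns without dissociation, and nothing says whether the 3 arrays came from separate mice, so their p-values may measure technical spread. Tissue, dissociation, sorting and extraction therefore changed together and cannot be told apart in any difference below. The remaining 8 arrays were Notch3 -/- (5 brain and 3 aorta) and were used only where named.

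Mural cells are the contractile and supporting cells of the vessel wall: smooth muscle rings around arteries, and pericytes on capillaries, where in the brain they face endothelium with a blood-brain barrier and the end-feet of astrocytes. The aorta is an elastic artery, with layers of smooth muscle between elastin sheets, an adventitia of fibroblasts and, in mice, a sleeve of fat around it. Notch3 is a receptor of mural cells that is switched on by ligands on neighbouring cells and is known for its part in the maturation of arterial smooth muscle. Smooth muscle of the head arteries comes largely from neural crest, and that of the descending aorta from mesoderm of the trunk.

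Each value is the intensity of a probe set, a group of probes for 1 transcript, on an Affymetrix mouse 430 2.0 array, which the authors had scaled to 150 as target. Differences are brain minus aorta on the log2(value + 16) scale, which understates changes of dim genes, and folds are on the same scale. Among 45037 probe sets, 22519 passed the filter on low values and were tested. A probe set or gene is named called where limma's adjusted p is under 0.05 in the fit over all 22519, and each gene is represented by its brightest probe set. Correlations were 0.932 to 0.962 between brain arrays and 0.975 to 0.978 between aorta arrays, against 0.822 to 0.860 across the tissues. The control probe sets for the ends of Actb and Gapdh differed sharply. The 3′ over 5′ intensity of Actb was 43.7 in brain E, 44.8 in G, 28.5 in I and 70.1 in H, against 3.95, 3.41 and 3.35 in aorta 5556, 5561 and 6166. That of Gapdh was 19.0 to 28.9 in brain and 3.14 to 3.76 in aorta. The signal of the brain arrays thus came more from the 3′ ends of these transcripts, and brain array H also had the highest Cre spike-in signal, above the 22698 to 28925 of the other brain arrays and the 12244 to 13354 of the aorta arrays. Of 2053 genes with 2 or more called probe sets, 522 (25.4%) had probe sets called in opposite directions and 107 (5.21%) by at least 2-fold each way. With 4 and 3 arrays, their number limits the precision of every difference. Where a probe set lies along its transcript was not analysed here, and the part of the 3′ shift in each single difference was not tested.

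**Figure D1:**
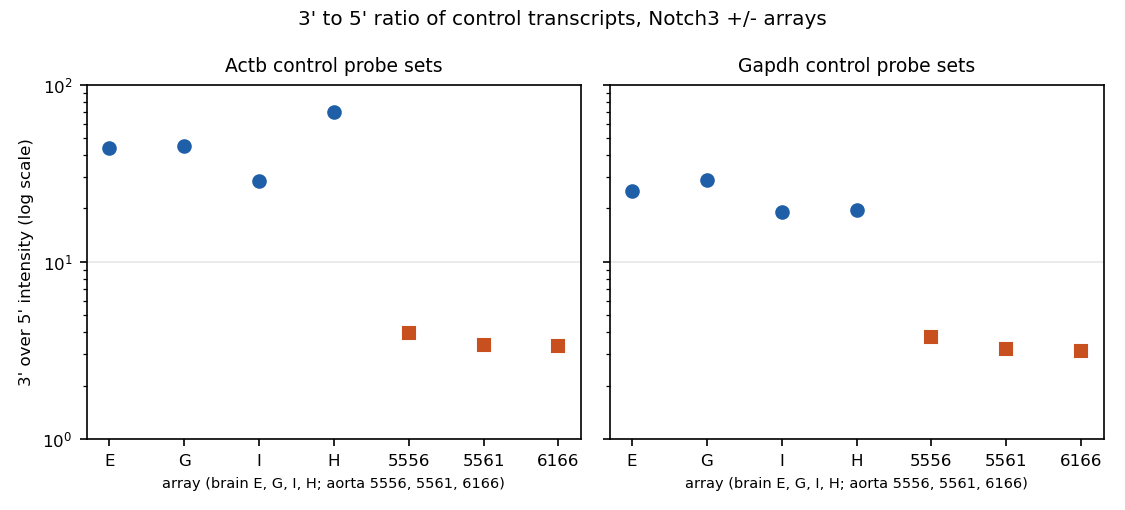
Intensity of the 3′ control probe set over that of the 5′ control probe set for Actb (left) and Gapdh (right) in each of the 7 arrays, on a log axis, with circles for brain and squares for aorta. The 4 brain arrays sit between 19.0 and 70.1 and the 3 aorta arrays between 3.14 and 3.95.

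The tissues differed at 11661 of 22519 tested probe sets. Of these, 5976 were higher in brain (26.5% of those tested) and 5685 higher in aorta (25.2%). By at least 2-fold, 3296 were higher in brain (14.6%) and 3311 higher in aorta (14.7%). In 12645 (56.2%) the 4 brain arrays and the 3 aorta arrays did not overlap, so a lack of overlap alone is the rule rather than the exception here. Of the calls, 51.2% were higher in brain, a share that became 84.9% (11855 against 2111) when each array was centred on its ribosomal protein genes, which moved the median difference from 0.07 to 0.73. That centring used the mean of all probe sets of these genes past the filter, dimmer ones included, and not the brightest alone. Over 18193 genes on the array the median difference was 0.12, and 54.4% of the 12037 genes past the filter were called. Members of a list are read against these shares.

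Notch3, the gene disrupted in all these mice, was read at 2775, 2558, 2805 and 2326 in brain E, G, I and H, and at 453.3, 387.4 and 361.9 in aorta 5556, 5561 and 6166. All brain arrays were above all aorta arrays, by 6.32-fold (difference 2.66, SE 0.15, limma adjusted p = 2.78e-07), and its other probe set differed in the same direction by 1.76. In Notch3 -/- arrays its means were 210 ± 37.0 (SD, n = 5) in brain and 108 ± 34.1 (SD, n = 3) in aorta.

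Contractile genes, which build the actin and myosin apparatus of smooth muscle, were mostly lower in the brain preparation. Of 38 members on the array 37 passed the filter: 28 were called higher in aorta, 26 of them by at least 2-fold, 6 were called higher in brain, 4 of them by at least 2-fold, and 3 were not called. The median difference over all 38 was -1.46. Beside these counts, the summed intensity of the list was 70765 to 110655 in brain and 136002 to 140047 in aorta. Since these are bulk samples, fewer cells of a type and less RNA per cell cannot be told apart.

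Among the first markers of the list, Myh11, the smooth muscle myosin heavy chain, was read at 3792, 2608, 2437 and 4093 in brain E, G, I and H and at 8483, 8034 and 8426 in aorta, which did not overlap (difference -1.39, SE 0.21, limma adjusted p = 0.000213). Tagln, an actin-bundling protein, stood at 2557 to 3576 in brain and 8702 to 9257 in aorta, a difference of -1.53. Enteric gamma-actin, Actg2, was 8.23-fold higher in aorta. Acta2, smooth muscle alpha-actin and the defining marker of the list, did not follow them on its brightest probe set, read at 17191, 17558, 16729 and 30846 in brain and 11115, 11157 and 11973 in aorta. That difference, 0.80 (SE 0.23, limma adjusted p = 0.0125), turned to -0.34 under quantile normalization, was not called without aorta array 5561 (0.78), and the 2 dimmer probe sets of Acta2 differed the other way, by -4.26 and -3.07. No direction can therefore be given for Acta2.

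The largest deficits in brain were in Mylk4, Ldb3, Cnn1 and Synpo2. Mylk4, a kinase of the myosin light chain kinase family, was read at 27.96 to 88.62 in brain and at 2763, 2784 and 2850 in aorta, 43.5-fold higher there (limma adjusted p = 1.47e-07). Cnn1, calponin, which binds actin and restrains myosin, was 12.0-fold higher in aorta, with brain arrays at 141 to 360.1 and aorta arrays at 2286 to 4613. Ldb3, a scaffold at anchoring sites of the actin filaments, was 14.4-fold higher in aorta and Synpo2, an actin-bundling protein, 10.3-fold. These 2 folds are of the brightest probe sets, and the others differed less in the same direction. They gave -0.86 and -0.46 (not called) for Ldb3, and -1.55, -0.75 and -0.57 (not called) for Synpo2. Against these deficits stood genes of calcium storage. Casq2, the calcium buffer of the sarcoplasmic reticulum, was read at 548.4, 867.9, 837.2 and 601 in brain and 20.39 to 25.96 in aorta, 18.4-fold higher in brain (difference 4.20, SE 0.20, limma adjusted p = 7.77e-08). Pln, phospholamban, the inhibitor of the calcium pump of that store, was 15.7-fold higher in brain, with 1634 to 3079 against 121.5 to 148.3. The intermediate filament genes Des and Synm were 3.60-fold and 3.15-fold higher in brain. The brain mural preparation was thus not lower for every smooth muscle gene, and for Casq2 and Pln the arrays of the tissues did not overlap.

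Many contractile genes are driven by serum response factor, which binds a motif called the CArG box. The motif, read on both strands since it is its own reverse complement in form, was searched in the window from 250 bases before to 50 after each start in RefSeq's promoters (GRCm38.p6). It stood in 7 of the 32 contractile genes with a promoter in that table (21.9%), in 488 of all 27025 genes (1.81%) and in 1.63% of all 32851 promoters. Of the 6 such contractile genes past the filter, 5 were called higher in aorta and 0 in brain. Among 27 immediate early genes with a promoter there, 2 held the motif, and both were called higher in brain. Of the 152 genes with the motif past the filter, 52 were called higher in aorta and 31 higher in brain. The 250 bases before the start are shown for 3 contractile genes that were higher in aorta and for Zfp36, an immediate early gene higher in brain, with the CArG box in capitals. They show the same motif before genes that differed in opposite directions. Ldb3, Actc1, Myl9 and Zfp36 were chosen after their values were seen.
Ldb3 (GRCm38.p6, chr14:34588682-34588931, minus strand): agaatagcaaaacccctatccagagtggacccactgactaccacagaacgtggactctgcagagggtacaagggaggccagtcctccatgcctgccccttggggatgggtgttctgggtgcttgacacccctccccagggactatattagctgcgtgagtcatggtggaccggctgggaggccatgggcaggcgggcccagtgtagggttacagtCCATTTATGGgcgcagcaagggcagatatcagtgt
Actc1 (GRCm38.p6, chr2:114052876-114053125, minus strand): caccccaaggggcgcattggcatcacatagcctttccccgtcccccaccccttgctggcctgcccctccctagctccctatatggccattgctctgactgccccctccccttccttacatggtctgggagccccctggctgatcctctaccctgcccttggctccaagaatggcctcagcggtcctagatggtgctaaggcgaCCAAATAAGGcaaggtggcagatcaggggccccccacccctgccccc
Myl9 (GRCm38.p6, chr2:156775214-156775463, plus strand): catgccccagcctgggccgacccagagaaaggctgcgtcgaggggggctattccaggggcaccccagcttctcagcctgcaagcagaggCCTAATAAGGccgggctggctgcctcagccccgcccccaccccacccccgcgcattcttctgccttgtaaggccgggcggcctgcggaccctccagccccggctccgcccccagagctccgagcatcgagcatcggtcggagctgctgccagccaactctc
Zfp36 (GRCm38.p6, chr7:28379229-28379478, minus strand): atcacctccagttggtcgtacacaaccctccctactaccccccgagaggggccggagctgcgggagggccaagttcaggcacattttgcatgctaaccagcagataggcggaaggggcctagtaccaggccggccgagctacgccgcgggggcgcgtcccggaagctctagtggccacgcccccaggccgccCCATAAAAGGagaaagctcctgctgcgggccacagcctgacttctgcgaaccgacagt
The CArG box began 35 bases before the start of Ldb3, 47 before that of Actc1, 161 before that of Myl9 and 58 before that of Zfp36. Actc1, cardiac alpha-actin, was read at 3.13 to 51.4 in brain and 149.4 to 308.2 in aorta. Myl9, a regulatory light chain of smooth muscle myosin, stood at 2561 to 4636 against 8109 to 8901, a difference of -1.40. Zfp36, which speeds the decay of inflammatory mRNAs, was 3.73-fold higher in brain, at 1183 to 1824 against 378.8 to 430.7. A match is a description of these letters and not evidence of binding.

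Markers of pericytes and of brain mural cells were mostly higher in brain, with a wide spread among members. Of 39 on the array 37 passed the filter: 28 were called higher in brain, 25 of them by at least 2-fold, 5 were called higher in aorta and 4 were not called, and the median over all 39 was 1.35. Their summed intensity was 66187 to 107469 in brain and 28038 to 30931 in aorta. The first 4 markers gave small or mixed differences. Pdgfrb, the receptor through which endothelium recruits mural cells, was read at 5321, 10678, 7272 and 17637 in brain E, G, I and H and at 3968, 4584 and 3263 in aorta, a difference of 1.24 (SE 0.34, limma adjusted p = 0.0104) with no overlap. Cspg4, the proteoglycan NG2 of pericytes, was not called, with 733 to 1274 in brain and 1309 to 1811 in aorta, and its second probe set was called the opposite way, 1.42 higher in brain. Without brain array H the brighter probe set was called lower in brain (-0.61). Rgs5, a brake on G protein signals in mural cells, was 0.73 higher in brain on its brightest probe set (limma adjusted p = 0.00421), a difference that became -0.01 under quantile normalization, and another of its probe sets was lower in brain, with a difference of -2.56. Rgs4, of the same family, was 2.92-fold higher in brain.

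Other members separated the tissues almost completely. Vtn, vitronectin, a secreted protein that brain pericytes make, was read at 6237, 10537, 10542 and 16675 in brain and at 31.21, 26.67 and 8.52 in aorta (difference 8.14, SE 0.32, limma adjusted p = 1.75e-08). Gper1, a G protein-coupled receptor for estrogen, was read at 5277 to 7936 against 23.63 to 27.53, 150-fold higher. S1pr3, a sphingosine 1-phosphate receptor, was 64.5-fold higher, and the amino acid transporter gene Slc6a20a was 82.3-fold higher in brain. Aorta was higher for Mcam, an adhesion molecule of mural and endothelial cells (4.73-fold), Tbx18, a transcription factor of mural cells (2.91-fold), and Ecm2, a matrix protein (2.42-fold). Tbx18 was not called with arrays centred on ribosomal protein genes (-0.89). The ATP-sensitive potassium channel of pericytes divided between the tissues by subunit. Its pore, Kcnj8, was 2.29-fold higher in brain, at 1210 to 2069 against 564.1 to 891.1 (limma adjusted p = 0.000982). Its regulatory subunit, Abcc9, was 2.68-fold higher in aorta, at 4493 to 4669 against 996.8 to 2456 (limma adjusted p = 0.00096).

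**Figure D2:**
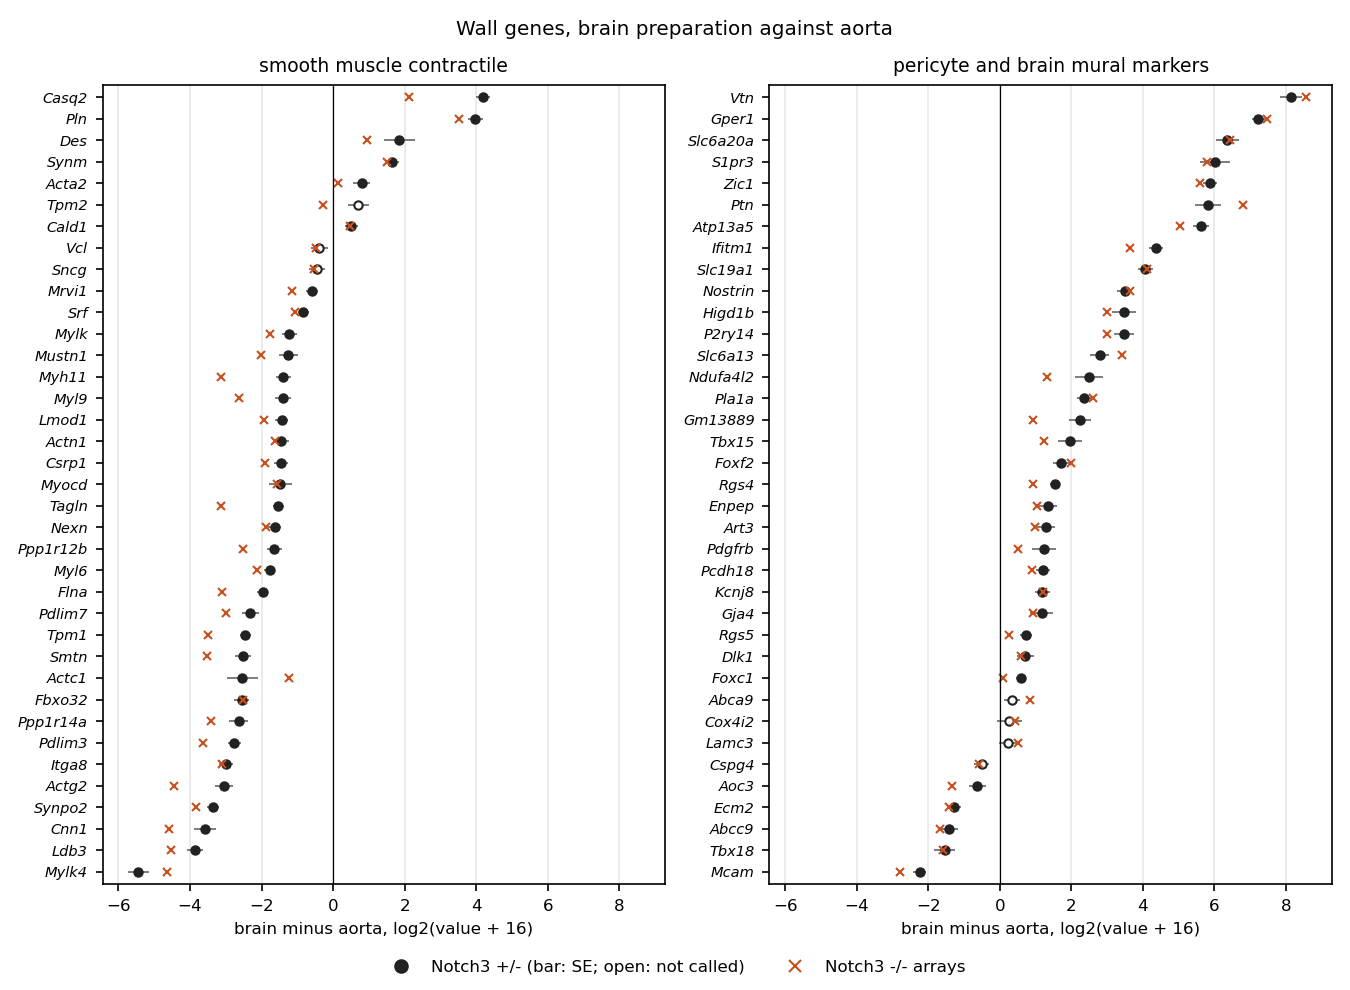
Difference between brain and aorta on the log2(value + 16) scale for each contractile gene (left) and each pericyte or brain mural marker (right) past the filter, with the SE as a bar, filled where called in the Notch3 +/- arrays, and a cross for the same difference in Notch3 -/- arrays. Contractile genes run from -5.44 (Mylk4) to 4.20 (Casq2) and mural markers from -2.24 (Mcam) to 8.14 (Vtn).

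Ion channels and pumps of the wall changed in both directions. Of 31 on the array 27 passed the filter, 11 called higher in brain and 7 higher in aorta, with a median of 0.23. These counts became 17 and 4 with arrays centred on ribosomal protein genes. Both subunits of the large-conductance potassium channel, which relaxes smooth muscle when calcium is high, were higher in aorta: Kcnma1, the pore, 4.31-fold, with brain arrays at 78.6 to 95.4 and aorta arrays at 422.8 to 438.3, and Kcnmb1, its smooth muscle subunit, 2.72-fold. Also higher in aorta were Cacna2d1, an accessory subunit of calcium channels (6.66-fold), Kcnab1, a subunit of voltage-gated potassium channels (5.44-fold), and the ryanodine receptor Ryr2, which that centring left uncalled (-0.73). Cacna1h, the pore of a T-type calcium channel, was higher in brain, at 337.9, 236.5, 225.9 and 469 against 1.52 to 9.09 in aorta (difference 3.88, SE 0.27, limma adjusted p = 1e-06). The voltage-gated potassium channel Kcna5 (3.82-fold) and Piezo1, a channel opened by stretch (3.30-fold), were higher there too.

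Receptors for vasoactive signals and their regulators were likewise split, with 13 of 35 past the filter called higher in brain, 10 called higher in aorta and a median of 0.01 over 45 members. The counts became 20 and 7 with arrays centred on ribosomal protein genes. Rgs16, a regulator of G protein signals, was read at 2482, 3543, 932.6 and 1135 in brain and 1.80 to 19.1 in aorta, 73.6-fold higher (limma adjusted p = 9.1e-07). P2ry14, a receptor for UDP-sugars, was higher in brain by 3.46 on the log2 scale, and Hcrtr1, an orexin receptor, was 5.99-fold higher. Htr1b, a serotonin receptor, was higher in aorta on its brightest probe set, at 944.7, 1050 and 1490 against 54.84 to 75.41 in brain, 14.9-fold. Its other probe set was not called, with a difference of 0.55. Ramp1, the partner that makes the calcitonin receptor-like protein a CGRP receptor, was 6.01-fold higher in aorta. Gucy1b1, a subunit of the nitric oxide receptor guanylate cyclase, was 4.55-fold higher in aorta. The first angiotensin receptor of the list, Agtr1a, was not called, at 116 ± 49.2 (SD, n = 4) in brain and 113 ± 38.8 (SD, n = 3) in aorta.

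The brain preparation also carried endothelial transcripts, many of them far above the aorta. All 28 blood-brain barrier genes on the array passed the filter and were called higher in brain, 27 by at least 2-fold, with a median of 3.93. The summed intensity of this list was 97352 to 126731 in brain and 5106 to 5486 in aorta. Cldn5, the claudin of brain endothelial tight junctions, was read at 10089, 15703, 16829 and 21344 in brain E, G, I and H and at 364, 377.2 and 321.4 in aorta, 41.9-fold (difference 5.39, SE 0.23, limma adjusted p = 3.28e-08). Slco1a4, a transporter of organic anions, was 446-fold higher, at 17376, 17566, 17007 and 7935 in brain and 13.03 to 20.44 in aorta. Slc2a1, the glucose transporter of the barrier, was 25.8-fold higher, Ocln, occludin, 13.5-fold, Slco1c1, which carries thyroid hormone, 246-fold, Abcb1a, the drug pump P-glycoprotein, 77.0-fold and Mfsd2a, a lipid transporter, 54.2-fold. In all of these the arrays of the tissues did not overlap.

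Pan-endothelial genes were higher in brain in 24 of 29 members, 20 of them by at least 2-fold, and higher in aorta in 3, with a median of 1.61. The sum of this list was 34221 to 47820 in brain and 9263 to 11393 in aorta. Flt1, a VEGF receptor, was read at 3547, 4157, 5397 and 5413 in brain against 45.08 to 92.73 in aorta (58.3-fold), Sox17, a transcription factor of arterial endothelium, was 38.6-fold higher and Kdr, the main VEGF receptor, 4.39-fold. Cdh5, the cadherin of endothelial junctions, was 1.87-fold higher. The first marker, Pecam1, went the other way: its only probe set was read at 83.0, 87.6, 135.2 and 92.1 in brain and at 324.9, 395.7 and 414.6 in aorta (difference -1.79, SE 0.20, limma adjusted p = 2.57e-05). Lyve1, of lymphatic endothelium and some macrophages, was 4.03-fold higher in aorta. Erg, an endothelial transcription factor, was 1.40-fold higher there, a difference of -0.49 that turned to 0.16 with arrays centred on ribosomal protein genes and was not called without aorta array 5556 (-0.51) or 5561 (-0.40).

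Genes of fenestrated or large-artery endothelium divided, with 6 of 21 past the filter called higher in brain and 9 higher in aorta, or 8 and 7 with arrays centred on ribosomal protein genes. Gkn3, an arterial endothelial gene of the brain, was 8.26-fold higher in brain, and Edn1, the vasoconstrictor endothelin, 4.72-fold. Fabp4, a fatty acid carrier of fat and of some endothelium, was 136-fold higher in aorta, at 3390 to 5304 against 9.79 to 35.2. The transcription factor Gata6 was 11.5-fold and the fatty acid receptor Cd36 14.03-fold higher in aorta.

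**Figure D3:**
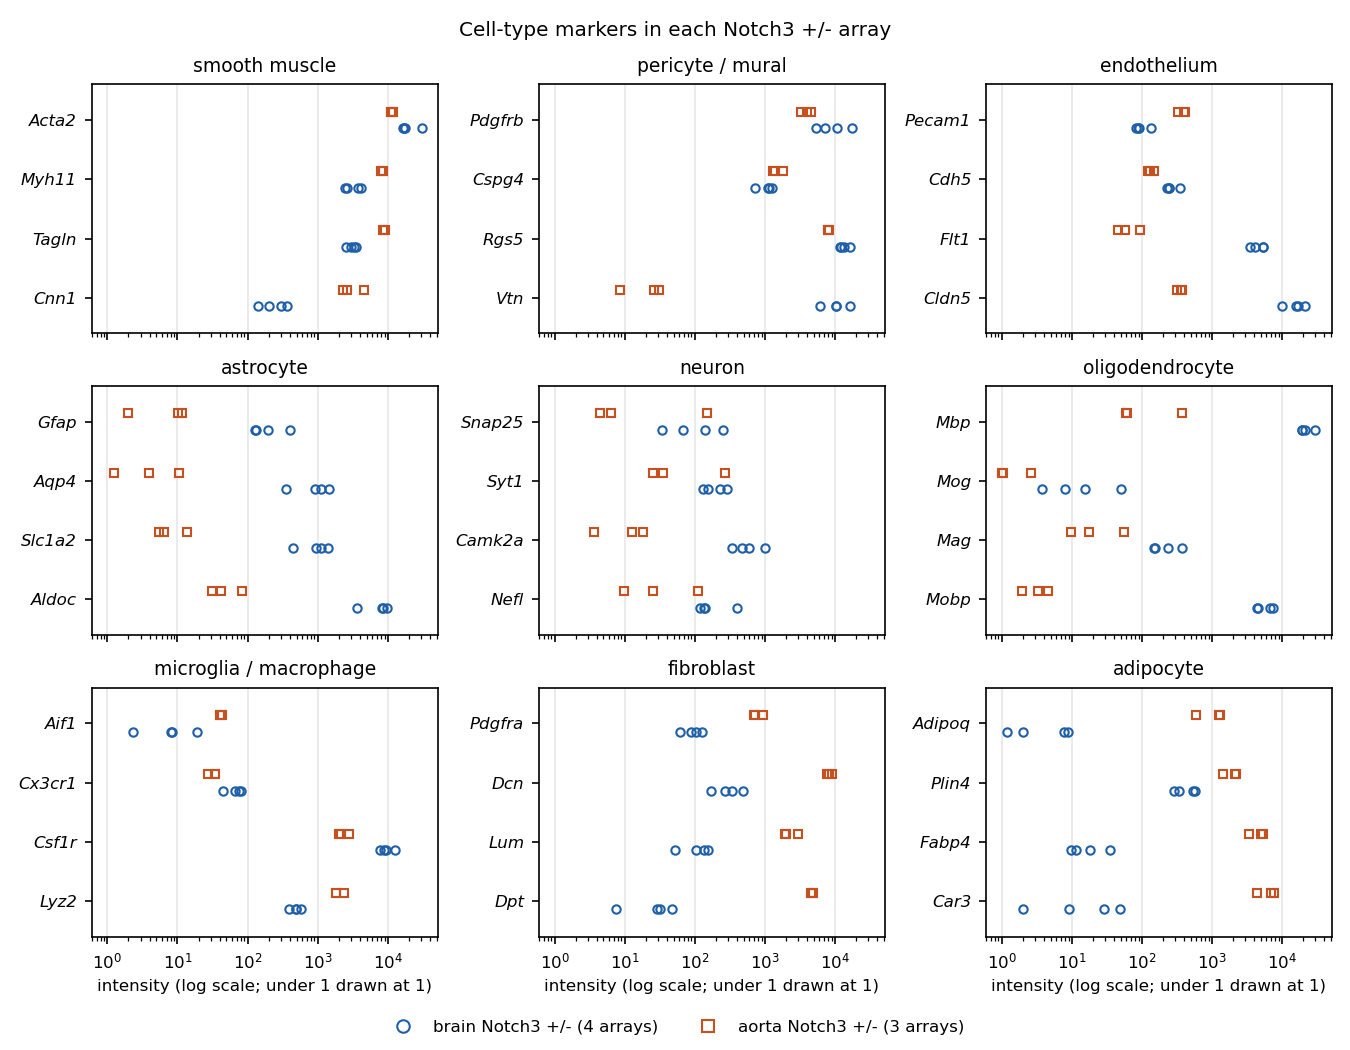
Intensity on a log axis of 4 markers for each of 9 cell types in every array, with circles for the 4 brain arrays and squares for the 3 aorta arrays. Markers of astrocytes and oligodendrocytes lie to the right in brain, those of fibroblasts and adipocytes lie to the right in aorta, and endothelial Pecam1 and Cldn5 lie in opposite orders.

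Markers of brain cells other than mural cells were present in the sorted preparation. Of 20 astrocyte genes on the array 18 were called higher in brain, 17 by at least 2-fold, and 0 higher in aorta, with a median of 3.20. Their summed intensity was 31790 in brain E, 47155 in G, 52761 in I and 66432 in H, against 12350 to 13720 in aorta. Gfap, the astrocyte intermediate filament, was read at 129.2, 130.4, 195 and 397.7 in brain and 1.96 to 11.5 in aorta. Aqp4, the water channel of astrocyte end-feet, was read at 348.2, 917.2, 1442 and 1129 against 1.25 to 10.4 (41.6-fold, limma adjusted p = 1.55e-06). The glutamate transporter Slc1a2 was 37.6-fold higher, Aldh1l1 3.83-fold and Aldoc, the aldolase of brain, 110-fold. Brain array E was the lowest of the 4 for Aqp4, Slc1a2, Aldh1l1 and Aldoc.

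Oligodendrocyte genes gave 15 of 18 past the filter called higher in brain and 2 higher in aorta. The median over its 21 members was 1.80, with sums of 36419 to 51567 against 1668 to 2319. Mbp, myelin basic protein, was read at 19322, 19036, 21628 and 29570 in brain and at 371, 60.1 and 60.84 in aorta, 168-fold (limma adjusted p = 6.29e-07). Mobp, another myelin protein, was 296-fold higher and Mag 5.82-fold. Mog stayed under the filter, at 3.73 to 50.8 in brain and 0.82 to 2.62 in aorta. Pdgfra, which the list holds for oligodendrocyte precursors but which fibroblasts also express, was 7.28-fold higher in aorta.

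Of 14 neuronal genes past the filter 7 were called higher in brain and 1 higher in aorta, or 13 and 1 with arrays centred on ribosomal protein genes, with sums of 5340 to 6211 and 2793 to 3843. Camk2a, a kinase of excitatory neurons, was read at 339.3, 468.6, 1005 and 586.2 in brain and 3.64 to 18.3 in aorta, 21.2-fold (limma adjusted p = 1.72e-06). Snap25, of synaptic vesicle fusion, was not called, at 34.67, 67.25, 256.1 and 142.2 in brain and 151.9, 6.34 and 4.48 in aorta, and neither were Syt1 and Stmn2. With that centring all 3 were called higher in brain, by 2.10, 1.95 and 1.04. Aorta array 5556 stood above the other aorta arrays for Snap25, for Syt1 (269 against 25.4 and 35.1) and for the neurofilament Nefl (112.3 against 9.82 and 25.1). It also did so for Th, which makes the catecholamines of sympathetic nerves (122.9 against 23.1 and 26.1), a gene named after its values were seen. Without array 5556, Snap25 was called higher in brain, with a difference of 2.44 (limma adjusted p = 0.00556), as were Syt1 (2.18), Stmn2 (0.73) and Th (0.94). Nefl, called higher in brain by 1.90, was not called without array 5561 (1.40). Uchl1, a neuronal ubiquitin hydrolase, was 4.46-fold higher in aorta.

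Choroid plexus and ependyma genes were higher in brain in 9 of 12 members past the filter, 9 of them by at least 2-fold, and higher in aorta in 2. Ttr, transthyretin, made by the choroid plexus, had the largest difference of all genes with a single symbol. It was read at 20746, 21233, 28629 and 44479 in brain E, G, I and H and at 8.09, 10.6 and 7.10 in aorta (difference 10.12, SE 0.25, limma adjusted p = 1.38e-09). The other first markers ordered the brain arrays differently. Kl, the hormone co-receptor klotho, was read at 835.5, 350.1, 171.8 and 132.3 and Kcnj13, a potassium channel of that epithelium, at 2443, 1395, 514 and 880.4, so that array E was highest for both and lowest for Ttr. Folr1, a folate receptor, was read at 444, 229.2, 132.3 and 176.1, with array E highest again.

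Microglial and macrophage genes did not set the tissues apart as a list, with 6 of 22 past the filter called higher in brain, 7 higher in aorta and a median of -0.11, or 11 and 6 with arrays centred on ribosomal protein genes. Their summed intensity was 14823 to 24061 in brain and 10266 to 13491 in aorta. Csf1r, the receptor on which these cells depend, was higher in brain on its brightest probe set, at 8869, 7636, 9457 and 12824 against 2008 to 2798 (4.14-fold, limma adjusted p = 1.36e-05). Another of its probe sets was called higher in brain by 0.80. The dimmest was not called (-0.24), at means of 199 in brain and 233 in aorta. The first markers of the list, which mark microglia, differed among themselves. Cx3cr1 was called higher in brain by 0.77 (limma adjusted p = 0.0179), at 44.7 to 80.5 against 27.4 to 34.7, though not without aorta array 5556 (0.70). P2ry12, at 41.7 to 94.9 in brain, was not called, but was called higher in brain by 1.13 with arrays centred on ribosomal protein genes. Tmem119 was 2.89-fold higher in aorta. Aif1 was under the filter, at 2.36 to 18.8 in brain and 39.8 to 43.4 in aorta. Lyz2, lysozyme, was 4.03-fold higher in aorta and Cd163, a scavenger receptor of macrophages, 5.48-fold. Of 17 lymphocyte markers on the array, 9 were under 50 on all 7 arrays, among them Cd3e at 5.94 to 18.2. Of the 4 past the filter, 3 were called higher in brain, 0 of them by at least 2-fold, and 0 higher in aorta. In the erythroid and platelet list, 2 of 6 past the filter were called higher in brain and 0 higher in aorta. Its alpha-globin gene Hba-a1 stood at 24.4 to 63.8 in both tissues.

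The aorta carried fibroblast and fat transcripts that were far lower in the brain preparation. Of 29 fibroblast genes 23 were called higher in aorta, 22 by at least 2-fold, and 3 higher in brain, with a median of -2.61 and sums of 12282 to 17939 in brain against 68900 to 75856 in aorta. Dcn, decorin, was read at 491.2, 345.9, 268.7 and 173.5 in brain and 7794, 9228 and 8345 in aorta (26.8-fold, limma adjusted p = 3.21e-07). Dpt, dermatopontin, was 112-fold higher in aorta, at 4611 to 4849 against 7.51 to 46.8, and Mfap4, a microfibril protein of fibroblasts and elastic fibres, was 124-fold higher, at 2332 to 2600 against 2.61 to 5.44. Lum, lumican, was 18.9-fold and Pdgfra 7.28-fold higher. Ogn, osteoglycin, was 2.89-fold higher on its brightest probe set, read at 2199 to 4118 in brain. Its other probe set differed by -4.16, at means of 156 in brain and 3043 in aorta. Genes of meningeal and perivascular fibroblasts were split, with 10 of 15 past the filter called higher in brain and 5 higher in aorta. Ptgds, the prostaglandin D synthase of the meninges, was 123-fold higher in brain, and Lum and Dcn stand in that list too.

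Adipocyte genes gave 18 of 21 past the filter called higher in aorta, 16 by at least 2-fold, and 1 higher in brain, with a median of -2.12 over 26 members and sums of 3726 to 4686 against 26020 to 33177. Car3, a carbonic anhydrase abundant in fat, was read at 7765, 4434 and 7064 in aorta 5556, 5561 and 6166 and at 1.99 to 48.9 in brain, the largest difference in favour of aorta (-7.53, SE 0.39, limma adjusted p = 1.26e-07). Adipoq, adiponectin, was read at 1304, 589.4 and 1243 in aorta and 1.19 to 8.92 in brain. Genes of brown fat were among them: Ucp1, the uncoupling protein, at 628.8, 105.4 and 480.6 in aorta and 1.82 to 36.2 in brain, and Cidea at 483.7, 261.5 and 553.4 against 4.39 to 32.9. For all 4 genes array 5561 was the lowest of the aorta. Striated muscle markers were mostly under the filter, 20 of 30, and Tnnt2, a cardiac troponin, was 13.3-fold higher in aorta at 225.6 to 288.6. The part that any of these other cell types had in the differences of wall genes was not tested.

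**Figure D4:**
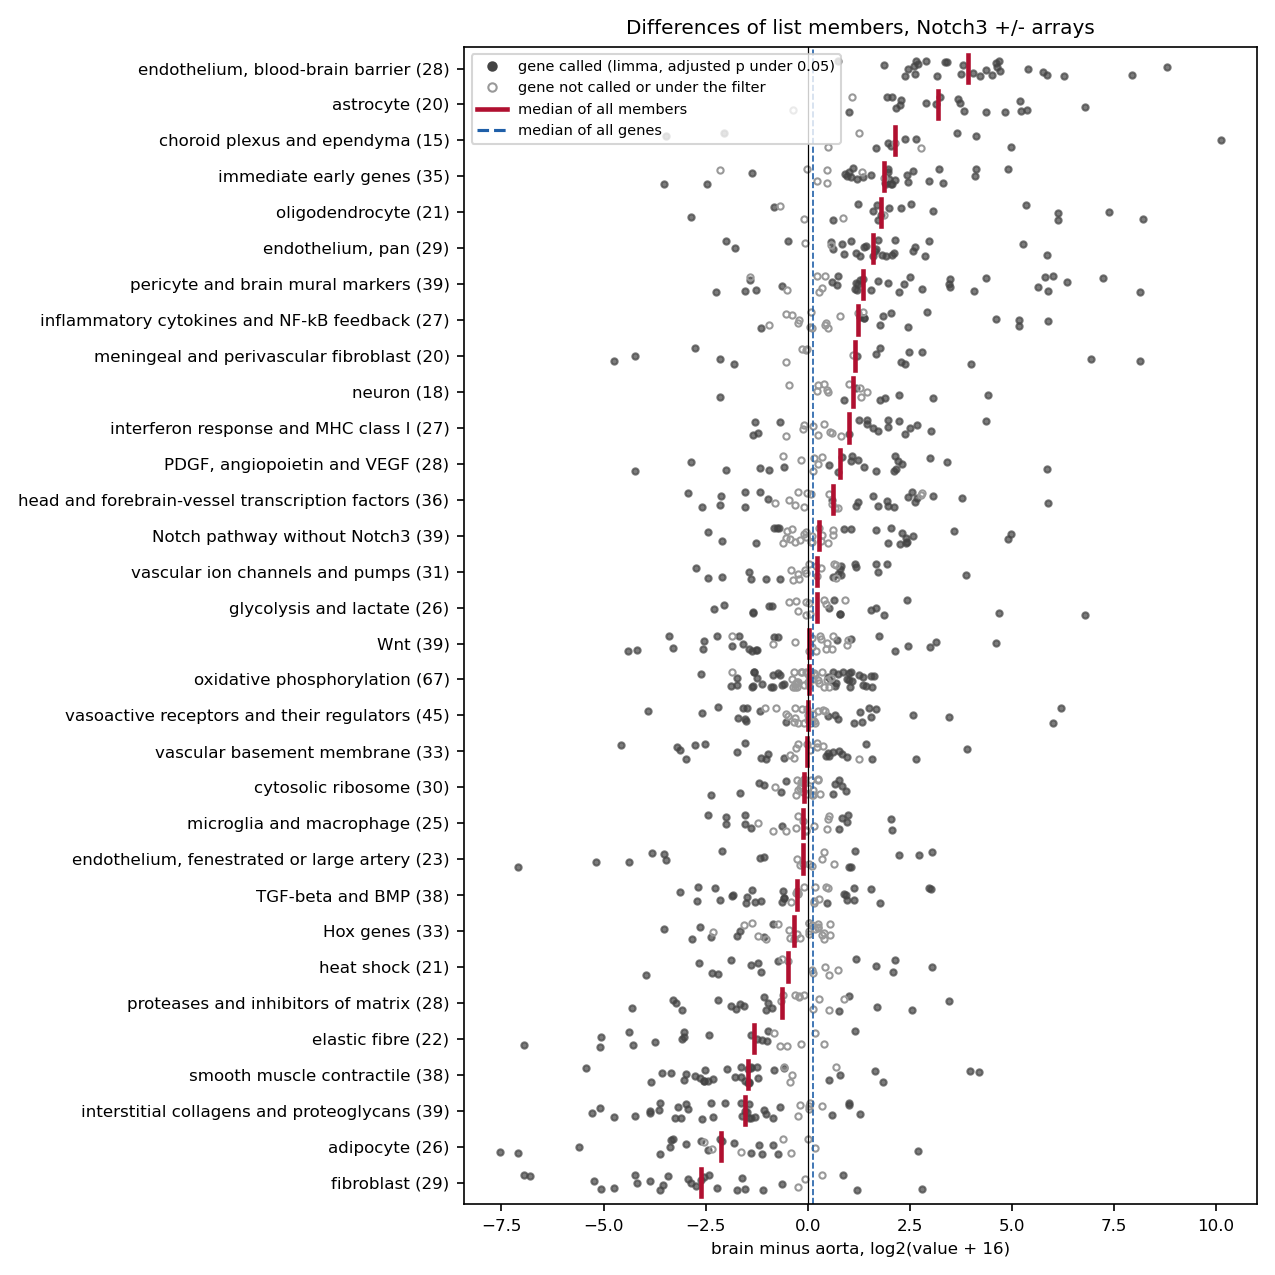
Difference between brain and aorta on the log2(value + 16) scale for each member of 32 gene lists, with the number of members on the array in brackets, filled points for genes called, a bar for the median over all members and a dashed line at the median of all genes, 0.12. Medians run from 3.93 for blood-brain barrier genes to -2.61 for fibroblast genes.

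Among genes of position along the body, the Hox genes called were all higher in aorta on the authors' scaling, and the other lists were called in both directions. Which cells of each preparation carried these transcripts was not tested. None of the 33 Hox genes was called higher in brain by limma among the 11 past the filter, and 8 were called higher in aorta, 7 by at least 2-fold; without the filter on low values the counts were 0 and 13. With arrays centred on ribosomal protein genes they were 2 and 6. The median over all 33 was -0.34, and 19 of them were under 50 on every aorta array. Hoxb5 was read at 3.47, 1.60, 5.68 and 8.89 in brain E, G, I and H and at 243.9, 251.8 and 172.8 in aorta (difference -3.51, SE 0.24, limma adjusted p = 8.8e-07). Hoxb3 was read at 26.6 to 49.8 against 314.6 to 485.4, Hoxb4 at 6.78 to 26.5 against 144.9 to 195.4 and Hoxb6 at 4.85 to 45.0 against 157.7 to 205.9, all without overlap. Hoxa3 was 3.29-fold and Hoxa2 3.14-fold higher in aorta, and Hoxa5 2.10-fold, the last no longer called when arrays were centred on ribosomal protein genes. Hoxa4 was under the filter, at 1.76 to 4.52 in brain and 23.2 to 42.8 in aorta. Hox proteins set position along the trunk and are absent from the forebrain.

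Transcription factors of the head and of forebrain vessels were higher in brain in 15 of 28 past the filter, 14 by at least 2-fold, and higher in aorta in 8, with a median of 0.63 over 36. That lean rested on the brightest probe sets. With all probe sets of a gene averaged, 8 of 18 past the filter were called higher in brain and 7 higher in aorta (median -0.03). Zic1, a zinc finger protein of the neural plate border and meninges, was read at 2012, 1801, 1194 and 1472 in brain and 9.24 to 13.8 in aorta, 59.1-fold (limma adjusted p = 9.01e-09). Tbx2 was 13.7-fold, Zic5 8.32-fold and Foxd1 6.42-fold higher in brain. Foxc1, which mural cells of the brain need, was higher in brain by 0.59 (limma adjusted p = 0.00836), with another probe set called the opposite way and no call without aorta array 6166 (0.48), while Foxc2 was 4.42-fold higher in aorta. Meox2 (7.66-fold), Foxp2 (5.98-fold) and Prrx1 (4.34-fold) were higher in aorta though listed as head genes. Among trunk and heart-field factors, 2 of 14 past the filter were called higher in brain and 4 higher in aorta, or 6 and 4 with arrays centred on ribosomal protein genes. Over all genes past the filter, 28.9% were called higher in brain and 25.5% higher in aorta. Osr1, of intermediate and lateral mesoderm, was read at 444.4 to 737.1 in aorta and 6.35 to 40.5 in brain, and Gata6 at 527 to 778.9 against 29.3 to 62.9. The 2 called higher in brain were Tbx3, 13.2-fold, at 532.8 to 762 against 26.1 to 39.7, and Pbx3, a partner of Hox proteins, 2.95-fold.

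**Figure D5:**
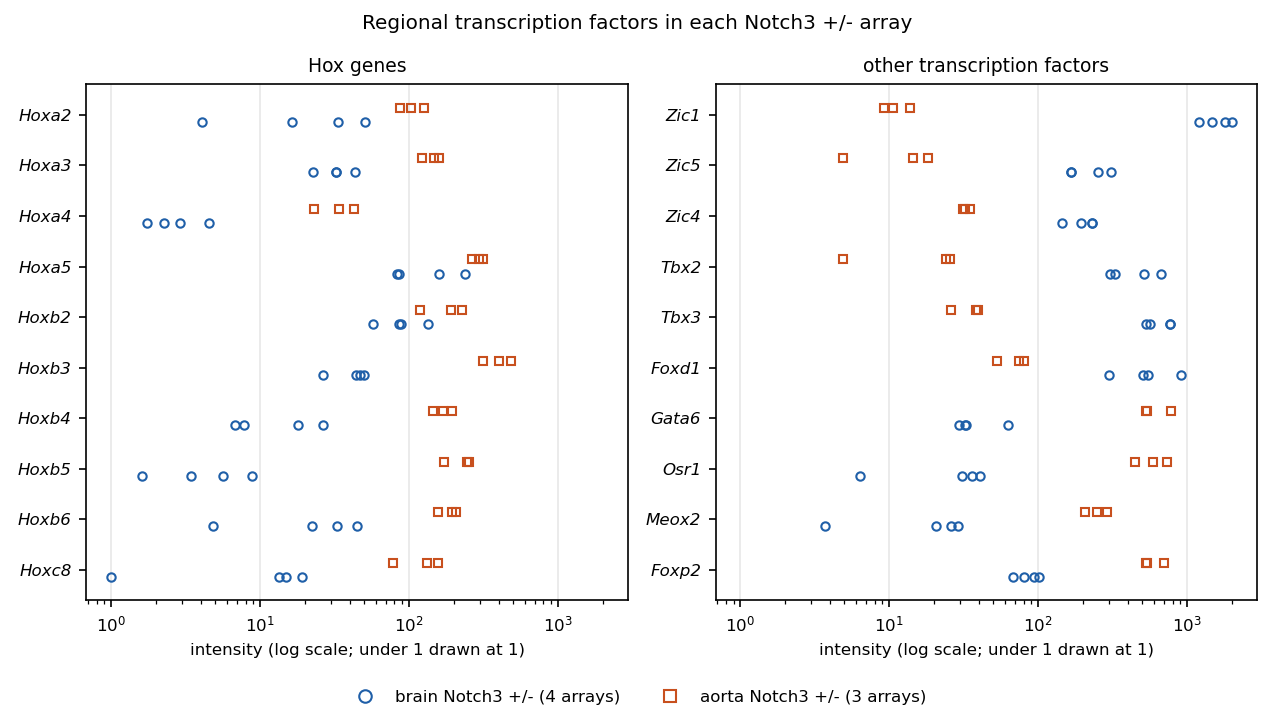
Intensity on a log axis of 10 Hox genes (left) and 10 other regional transcription factors (right) in every array, with circles for brain and squares for aorta. Hoxb5 lies at 1.60 to 8.89 in brain and 172.8 to 251.8 in aorta, and Zic1 at 1194 to 2012 against 9.24 to 13.8.

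The extracellular matrix was weighted to the aorta. Of 22 genes of the elastic fibre, the recoil material of large arteries, 15 of 21 past the filter were called higher in aorta, 13 by at least 2-fold, and 1 higher in brain, with a median of -1.31. Eln, elastin itself, was read at 531.7, 536.6, 319.6 and 598 in brain and 3387, 5281 and 4051 in aorta, 8.38-fold (limma adjusted p = 1.85e-06). Fbln5, which places elastin on microfibrils, was 20.7-fold higher in aorta, Loxl1, which cross-links it, 19.4-fold, and Mfap5 33.6-fold. Mfap2 was the 1 member called higher in brain, by 1.15, with overlapping arrays, and it was not called when brain array I (0.87) or H (1.03) or any aorta array (1.10 to 1.20) was left out. Its other probe set, under the filter, differed the other way (-2.39), at means of 12.1 in brain and 131 in aorta. No direction can therefore be given for Mfap2. Interstitial collagens and proteoglycans gave 29 of 37 past the filter called higher in aorta, 27 by at least 2-fold, and 4 higher in brain. Col3a1 was 12.2-fold higher in aorta, at 10084 to 10912 against 481.7 to 1047, Col1a1 14.5-fold, Postn, periostin, 39.0-fold and Vcan, versican, 33.9-fold. Fibroblast and adipocyte sums, given above, moved in the same direction as these lists, and Lum, Dcn, Col1a1, Col3a1 and Mfap5 stand in the fibroblast list as well.

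The basement membrane, the sheet shared by mural and endothelial cells, was mixed: of 30 past the filter 11 were called higher in brain, 4 by at least 2-fold, and 12 higher in aorta, 10 by at least 2-fold. With arrays centred on ribosomal protein genes these became 15 and 7. On their brightest probe sets the type IV collagen chains divided by pair. Col4a1 (difference 0.77) and Col4a2 (0.96), the common chains, were higher in brain on their brightest probe sets, at 4730 to 8572 against 3452 to 3805 and 2248 to 5749 against 1240 to 2066. The other probe set of Col4a1 was not called (-0.44), at means of 508 in brain and 676 in aorta. Without aorta array 6166 Col4a2 was not called (0.76). Col4a5 and Col4a6, the chains of smooth muscle basement membrane, were 8.76-fold and 9.16-fold higher in aorta, and Col4a3 was 2.90-fold higher there, though not called with that centring (-0.88). Itga6, a laminin receptor, was 15.0-fold higher in brain and Agrn, agrin, 6.34-fold, while Npnt, nephronectin, was 23.9-fold higher in aorta, at 4949 to 5451 against 94.3 to 351.9. Its receptor subunit Itga8 was 7.94-fold higher in aorta. Among proteases and their inhibitors, 5 of 26 past the filter were called higher in brain, led by Adamts4 (10.96-fold) and Timp4 (5.88-fold), and 13 higher in aorta, led by the stromelysin Mmp3 (19.7-fold), or 8 and 9 with that centring.

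Notch pathway genes other than Notch3 were called higher in brain in 14 of 35 past the filter, 13 by at least 2-fold, and higher in aorta in 6, 3 of them by at least 2-fold, with a median of 0.28. With arrays centred on ribosomal protein genes, 21 were called higher in brain and 3 higher in aorta. Among receptors, Notch1 was read at 891.6, 1005, 1082 and 770.4 in brain and 101.2, 199.6 and 139.5 in aorta (5.99-fold, limma adjusted p = 4.04e-06), and Notch4, of endothelium, was 4.07-fold higher in brain. Notch2 went the other way, at 280.2 to 440.7 in brain and 1488 to 1879 in aorta, 4.29-fold. Among ligands, Jag2 was 31.7-fold higher in brain, at 821.8 to 1220 against 6.16 to 25.7, whereas Jag1 was not called, at 742.6 ± 144.5 (SD, n = 4) and 691.6 ± 128.3 (SD, n = 3), except under that centring (0.75). Among targets, Hes5, expressed by neural cells, was 29.8-fold higher in brain and Hes1 and Hey1 5.27-fold and 5.28-fold, while Hey2, of arterial smooth muscle and endothelium, was 5.43-fold higher in aorta and Heyl, of mural cells, was not called. Nrip2, a nuclear receptor co-regulator, was 12.0-fold higher in brain. Rbpj, the DNA-binding partner of all Notch receptors, was 1.69-fold higher in aorta, a call that the centring ended (-0.10).

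In the TGF-beta and BMP list, 10 of 35 past the filter were called higher in brain and 16 higher in aorta, with a median of -0.26, and 14 and 11 with arrays centred on ribosomal protein genes. Tgfbr1, the type I receptor, was 6.57-fold higher in aorta and the activin subunit Inhba 8.79-fold, while Bmp5 was 8.12-fold, the co-receptor Eng 7.79-fold and the endothelial receptor Acvrl1 3.39-fold higher in brain. In the Wnt list, 8 of 33 were called higher in brain and 16 higher in aorta, counts that became 15 and 13 under that centring. Among the largest differences in favour of aorta were Wif1 (21.2-fold), at 521 to 557.8 against 0.98 to 20.1, Sfrp2 (18.0-fold), Frzb (10.5-fold) and Dkk3 (9.90-fold). Of these, Wif1, Sfrp2 and Frzb encode secreted proteins that bind Wnt. Among the largest differences in favour of brain were Apcdd1 (24.6-fold), a gene of the barrier endothelium, and Axin2 (7.94-fold), which Wnt signals induce. In the list of PDGF, angiopoietins and VEGF, 16 of 28 were called higher in brain and 6 higher in aorta. Pdgfb, which endothelium gives to mural cells, was 4.47-fold higher in brain, Pdgfd 4.01-fold higher in aorta, and Pdgfa was not called, except under that centring (0.91). Epas1, a hypoxia-regulated factor also abundant in pericytes, was 4.64-fold higher in brain, at 18406 to 27687 against 4157 to 5232.

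Immediate early genes, which respond within minutes to stimulation, were higher in the brain preparation: 25 of 32 past the filter were called, 23 by at least 2-fold, against 3 higher in aorta, with a median of 1.87 over 35. Fos was read at 14665, 13444, 11540 and 16900 in brain and 899.8, 849.1 and 691 in aorta, 17.0-fold (limma adjusted p = 3.93e-08). Gadd45b was 30.0-fold, Nr4a2 17.6-fold and Nr4a1 9.91-fold higher. The 3 higher in aorta were Ccn2 (11.6-fold), a matricellular protein, at 10454 to 12512 against 593.2 to 1862, Klf6 (5.55-fold) and Ccn1 (2.58-fold). Ccn1 had 2 further probe sets called the opposite way, by 3.35 and 3.23, and was not called with arrays centred on ribosomal protein genes (-0.71). No direction can therefore be given for Ccn1. Inflammatory genes gave 12 of 22 past the filter called higher in brain, all by at least 2-fold. The 1 called higher in aorta was Cxcl12, with a difference of -1.14 on its brightest probe set. With arrays centred on ribosomal protein genes that probe set was not called (-0.49). Another probe set of Cxcl12 was called the opposite way, by 5.17, so no direction can be given for this gene. Socs3, which damps cytokine signals, was read at 10492, 8602, 5667 and 11102 against 110.3 to 157.4 (59.4-fold). The cytokine Il6 was read at 990.5, 1188, 655.4 and 362.5 against 0.53 to 10.7, and the chemokine Cxcl1 was 36.1-fold higher. Dissociation and sorting were part of the brain samples only, so these genes cannot be told apart from handling.

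Heat shock genes were called in both directions, 5 of 20 past the filter higher in brain and 9 higher in aorta, or 7 and 5 with arrays centred on ribosomal protein genes. Hspa1a (8.28-fold), Dnajb1 (4.37-fold), Hspa1b (4.22-fold), Hspb1 (3.17-fold) and Hspa8 (difference 1.18) were the 5 called higher in brain. Another probe set of Hspa8 was called the opposite way, and under quantile normalization its difference was 0.16 and not called. The aorta arrays varied in the inducible ones, with Hspa1a at 1147, 482.1 and 2346 in 5556, 5561 and 6166 against 6657 to 12790 in brain. The 9 called higher in aorta were led by Hspb7 (15.6-fold) and Hspb6 (6.37-fold), small heat shock proteins of muscle, while Hspb1, of the same family, was among those higher in brain. Interferon response genes gave 14 of 26 past the filter called higher in brain, all by at least 2-fold, led by Ifitm1 (20.6-fold) and Rsad2 (8.19-fold), and 4 higher in aorta, among them Ifitm2 (2.53-fold) and H2-D1 (2.44-fold), of which another probe set was called the opposite way and which was not called with arrays centred on ribosomal protein genes (-0.63).

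Housekeeping lists stayed near the median of all genes on the authors' scaling. Of 65 oxidative phosphorylation genes past the filter 20 were called higher in brain and 17 higher in aorta, with a median of 0.02, and of 29 ribosomal protein genes 5 and 6, with a median of -0.10. Centring on the ribosomal protein genes made these 38 and 7 for oxidative phosphorylation and 18 and 2 for the ribosome. The median of the ribosome list became 0.55, so that centring did not bring the brightest probe sets of these genes level between the tissues. Under quantile normalization the ribosome list leaned the other way, with 1 called higher in brain and 16 higher in aorta (median -0.42). With all probe sets of a gene averaged, the ribosome counts were 4 and 12 of 29 (median -0.37). Single members departed from the medians on the authors' scaling, such as Rps24, read at 651.8 to 1216 in brain and 4138 to 4966 in aorta. Glycolysis genes were called higher in brain in 10 of 24 and higher in aorta in 6, the former led by Aldoc, Slc2a1 and Ldhb. The clock output gene Dbp was read at 1115, 879, 1109 and 6495 in brain and 162.4 to 174.4 in aorta, so that array H stood apart from the other brain arrays. The labels give no time of day of collection.

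By single genes, the 15 largest differences in favour of brain were, in order, Ttr, Slco1a4, Mobp, Vtn, Prom1, Slco1c1, Bcan, Mbp, Gper1, Ptgds, Mmd2, Aldoc, Slc6a20a, Kif5a and Abcb1a, from 10.12 to 6.27 on the log2 scale. Of these, 3 are in the barrier endothelium list, 2 in the oligodendrocyte list and 3 in the mural list. Prom1, a membrane protein of endothelium and neural progenitors, was 278-fold higher in brain, at 6440 to 12666 against 4.71 to 25.0. The 15 largest in favour of aorta were Car3, Fabp4, Mfap4, Dpt, Sost, Itgbl1, Nox4, A530047J11Rik, Adipoq, Mylk4, Postn, Scara5, Smoc2, Itih4 and Cytl1, from -7.53 to -5.19. Sost, a secreted Wnt inhibitor, was read at 2241, 2797 and 2253 in aorta and 6.35 to 31.6 in brain. Nox4, an oxidase that makes hydrogen peroxide in smooth muscle, was 69.9-fold higher in aorta, at 1696 to 2373 against 4.32 to 29.6. Itgbl1, an integrin-like secreted protein, was 84.2-fold higher in aorta.

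The same contrast in mice with no intact Notch3, which shares no array with the one above, called 14076 of the 22519 probe sets past the filter in those 8 arrays (62.5%). Of the 11661 probe sets called in Notch3 +/- arrays, 10387 (89.1%) were called in the same direction there, which is 73.8% of the Notch3 -/- calls, and 5 were called in the opposite direction. Across 21604 probe sets tested in both, the differences had a Pearson correlation of 0.963, given as a description since genes are not independent replicates. The list medians in Notch3 -/- arrays were -1.97 for contractile genes, 0.99 for mural markers, 3.96 for barrier endothelium, 3.66 for astrocytes, -2.56 for fibroblasts, -1.79 for adipocytes and 1.51 for immediate early genes.

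Whether the tissue difference itself depended on genotype was tested as an interaction over all 15 arrays. There limma called 4 of the 22519 probe sets past the filter in those arrays (0.0178%). They were Casq2, Notch3, Depp1 and Rrad. An unadjusted p under 0.05 was found for 1071 probe sets, which is below the 5% that no interaction at all would give. The brain excess of Casq2 was 4.20 in Notch3 +/- and 2.11 in Notch3 -/- arrays (interaction 2.09, limma adjusted p = 0.0117), where its brain mean was 193 ± 44.7 (SD, n = 5) against 714 ± 162 (SD, n = 4) in Notch3 +/-. Depp1, a gene induced by FOXO factors, had an excess of 4.47 in Notch3 +/- and 6.57 in Notch3 -/- arrays, where its aorta mean was 8.15 ± 0.776 (SD, n = 3) against 74.3 ± 37.4 (SD, n = 3). Rrad, a GTPase that limits calcium channels, differed between brain and aorta by 1.38 in Notch3 +/- and by -0.45 in Notch3 -/- arrays, with an interaction of 1.83.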

How the data were processed

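Expression was measured on 1 array per sample. The values are linear intensities, deposited by the authors after scaling each array to a target of 150, from 15 µg of labelled cRNA per array, per the labels' protocols, which also name Rosetta Resolver. The labels do not give the summary algorithm, the background correction or a genome build. The brain cells were lysed straight from the sorter and extracted with RNeasy columns, the aorta explants with Trizol, PureLink and RNeasy columns, both with DNase, per the labels' protocols.

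From these values log2(value + 16) was taken with the authors' scaling kept, Affymetrix control probe sets were left out, and the 22519 probe sets at or above the median of the mean over the 7 arrays went into a two-sided test by limma (version 3.58.1, under R version 4.3.3; lmFit and eBayes with an intensity trend, Benjamini-Hochberg at 5%). The filter used the same 7 arrays, so a dim probe set could pass through the tissue where it was high. The Notch3 -/- arrays and the interaction term over all 15 arrays were fitted likewise, each filtered at the median of its own arrays. Symbols came from the platform annotation, updated through RefSeq's gene table: 34958 probe sets had 1 symbol, 932 several and 9211 none, and only the first were named. Of 1220 genes in 44 lists, 1120 were on the array, and a summed intensity adds the brightest probe set of each member.

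Named genes were Notch3, the 15 largest called differences in each direction without overlap, and, in each list, up to 5 in each direction, the brightest and, for cell types, the first 4 markers. Outside that rule, named after their values were seen, stand Zfp36, Myl9, Agtr1a, Th, Ucp1, Hoxa2, Hoxa4, Eln, Col3a1, Col1a1, Col4a1, Col4a3, Notch4, Jag1, Hes1, Hey1, Heyl, Pdgfb, Pdgfa, Depp1 and Rrad. The members and lists were chosen with earlier results of these data known. The fit was tested on simulated data of 22519 probe sets with 7 arrays, with 50 probe sets changed at each fold. It recovered 2% of changes of 1.5-fold, 26% of 2-fold, 86% of 4-fold and 96% of 8-fold, with 5 false calls among 110. Far fewer probe sets were changed there than the 11661 called in the real data, which makes the adjustment of p stricter. These shares therefore do not carry over to the real comparison.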

Additional observations from a re-analysis of the deposited data

Results flagged for a closer look

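Among 211 genes and 44 lists, 17 had 1 of the 4 brain arrays apart from the other 3, 7 of them array H. Such a check marks about 1 in 20 groups by chance. Array H was highest for Acta2 (30846), Piezo1 (1649) and Dbp (6495) and lowest for Slco1a4 (7935), Hey1 (350.2), Dkk3 (139.7) and Pdgfd (254.2). Array I was highest for Gata6 (62.92), Nefl (395.3), Hba-a1 (63.83) and Sost (31.58) and lowest for Col3a1 (481.7) and Ifitm1 (1536). Array G was highest for Tnnt2 (19.68) and Bmp5 (300.5) and lowest for the mean log2 value of the mesothelium list (5.95), and array E was lowest for Aldoc (3642).

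The difference between brain and aorta changed with genotype, by limma's interaction term, for Notch3 (1.78, adjusted p = 0.0117), Casq2 (2.09, adjusted p = 0.0117), Depp1 (-2.10, adjusted p = 0.0117) and Rrad (1.83, adjusted p = 0.0212), each given as Notch3 +/- minus Notch3 -/- on the log2 scale.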

How the results depend on the processing

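Of the alternatives tried, 3 moved the counts of called probe sets by over 1.5 times. With a filter at the upper quartile, which tests fewer probe sets, 6963 were called, 3369 higher in brain and 3594 higher in aorta. Asking also for 2-fold, they were 6607, 3296 and 3311. With each array centred on its ribosomal protein genes, 11855 were higher in brain and 2111 higher in aorta. The centring used all their probe sets past the filter. It left the ribosome list, read on the brightest probe set of each gene, at a median of 0.55. The cause of the shift in calls was not tested. With 1 array left out, the calls ranged from 9265 to 11995, those higher in brain from 4821 to 6044 and those higher in aorta from 4444 to 5951, and in Notch3 -/- arrays from 12155 to 14153. Over 206 named genes tested, 3403 of 3443 values kept direction and side of the threshold, 22 lost the call, 15 gained it and 3 reversed: Acta2 (-0.34) and Rgs5 (-0.01) under quantile normalization and Erg (0.16) with ribosomal centring, where the cause was not tested. Without genes whose probe sets disagreed, an alternative chosen after seeing the data, contractile genes were called higher in aorta in 26 of 33 and in brain in 4, and mural markers in brain in 26 of 35 and in aorta in 5. With all probe sets of a gene averaged these were 30 and 4 of 36, and 21 and 6 of 33. With ribosomal centring the counts higher in brain and in aorta were 7 and 23 for contractile genes, 31 and 3 for mural markers, 5 and 21 for fibroblast genes, 2 and 13 for adipocyte genes, 2 and 11 for the elastic fibre, 6 and 23 for collagens, 20 and 3 for the PDGF and VEGF list, 16 and 0 for inflammatory genes, 19 and 1 for interferon genes and 14 and 3 for glycolysis. No paired analysis was possible because the array names are not shared between brain and aorta. The precision is limited by 4 and 3 arrays, and dim probe sets by their signal over background, for which no detection calls were used here.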
